A study of Mus musculus with 2 samples.

Results

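The genes described here encode the subunits of the proteasome, including the interferon-inducible subunits of the immunoproteasome, in mouse bone marrow-derived macrophages. Members were the protein-coding genes of the deposited table whose symbol starts with Psma, Psmb, Psmc, Psmd or Psme followed by a digit. The rule found 45 genes among the 34745 rows of the table. Both groups were primary macrophages from C57BL/6 bone marrow that received LPS (lipopolysaccharide of bacteria, a strong activator of these cells). The AclyE14-ASO library came from cells transfected with an antisense oligonucleotide (ASO) named for Acly, and the Control-ASO library from cells transfected with a control ASO. The sources used here do not give the LPS dose, its duration or the number of animals. Each condition was 1 library, so no difference has a replicate check, and no p-value is given. The rule did not use measured values, but it was proposed with earlier results of these data known.

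The proteasome degrades proteins that carry ubiquitin. Its core particle is a barrel of alpha rings, which gate the entry, and beta rings, which hold the catalytic sites, and its regulatory particle binds ubiquitin, unfolds the substrate with a ring of ATPases and feeds it into the core. In cells exposed to interferon, the catalytic subunits Psmb8, Psmb9 and Psmb10 replace Psmb5, Psmb6 and Psmb7 in new core particles, and the activator made of Psme1 and Psme2 caps them. The peptides they release are loaded on MHC class I molecules, and macrophages are known to hold much immunoproteasome.

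The AclyE14-ASO library held 12751076 gene counts and the Control-ASO library 14215397. Levels are the deposited FPKM (counts scaled to the library total and to gene length), and a log2 ratio is the AclyE14-ASO value of FPKM + 1 over the Control-ASO value. Genes whose 2 libraries averaged 1 FPKM or more are called expressed. Adding 1 understates differences where levels are low. Count ratios, taken after dividing by the library totals, carry exact 95% intervals for counting error only. Acly, the gene named on the oligonucleotide, had 768 counts in the AclyE14-ASO library and 1549 in the Control-ASO library, a count ratio of 0.553 (interval 0.506 to 0.603). All 9 macrophage markers examined were expressed in both libraries, at 18.6 to 12276 FPKM with the AclyE14-ASO and 9.12 to 9798 FPKM with the control ASO. Of these, 3 were higher by 1.5-fold or more, Itgam (43.2 FPKM with the AclyE14-ASO and 9.12 FPKM with the control ASO), Cd14 (count ratio 2.23) and Fcgr1 (1.96), and Cd68 was lower (0.557). Over all expressed genes, 7.03% were higher and 8.48% lower by that limit. Fibroblast and stromal markers summed to 210.2 FPKM in the AclyE14-ASO library and 48.5 FPKM in the Control-ASO library, and all 6 of the 8 listed that reached the expression limit were higher by 1.5-fold or more. The T cell markers Cd3e, Cd3d and Cd8a, the neutrophil markers Ly6g and Elane, 4 of the 5 dendritic cell markers and all 3 erythroid markers were at 0 counts in both. None of the 8 lymphocyte markers reached the expression limit, and Cd4 had the most counts, 10 with the AclyE14-ASO and 13 with the control ASO. The neutrophil marker S100a8 was at 41.4 FPKM with the AclyE14-ASO and 19.7 FPKM with the control ASO, Csf3r at 6.58 FPKM with the AclyE14-ASO and 4.17 FPKM with the control ASO, and Mpo at 2 counts in each. The part of these marker differences in the values below was not tested. In bulk samples, fewer cells of a type and less RNA per cell cannot be told apart.

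No proteasome gene differed by 1.5-fold or more between the libraries. Of the 45 genes, 42 reached the expression limit, and 0 were higher and 0 lower by that measure. Of all 8658 expressed genes, 7.03% were higher and 8.48% lower, 15.5% together. At 2-fold, also passed by 0 proteasome genes, the shares were 3.18%, 1.55% and 4.72%, and among genes of at least 5 FPKM at 1.5-fold they were 6.29%, 9.6% and 15.9%. The log2 ratios ran from -0.44 for Psmd10 to 0.44 for Psmb7. The median was -0.15, next to -0.13 for all expressed genes, and the interquartile range was 0.20 for the proteasome genes and 0.46 for all expressed genes. At these depths small differences were still above counting error. The counting interval of the ratio lay below 1 for 29 of the 42 genes and above 1 for 5, where the shares over all expressed genes were 44.2% and 21.7%. Whether an interval includes 1 depends on the counts as well, and these shares were not matched for counts. All 45 genes together held 83667 counts in the AclyE14-ASO library and 101547 in the Control-ASO library. These were 0.656% and 0.714% of the totals, a ratio of 0.919 (0.910 to 0.927). That interval covers counting error only, and the direction depends on the scaling between the libraries. The log2 ratio of the summed FPKM was -0.10 as deposited and 0.032 after centring on the median gene. Centring here and below used the median log2 ratio of genes of at least 5 FPKM. It was 0.0046 with TMM factors and 0.0067 with size factors.

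**Figure D1:**
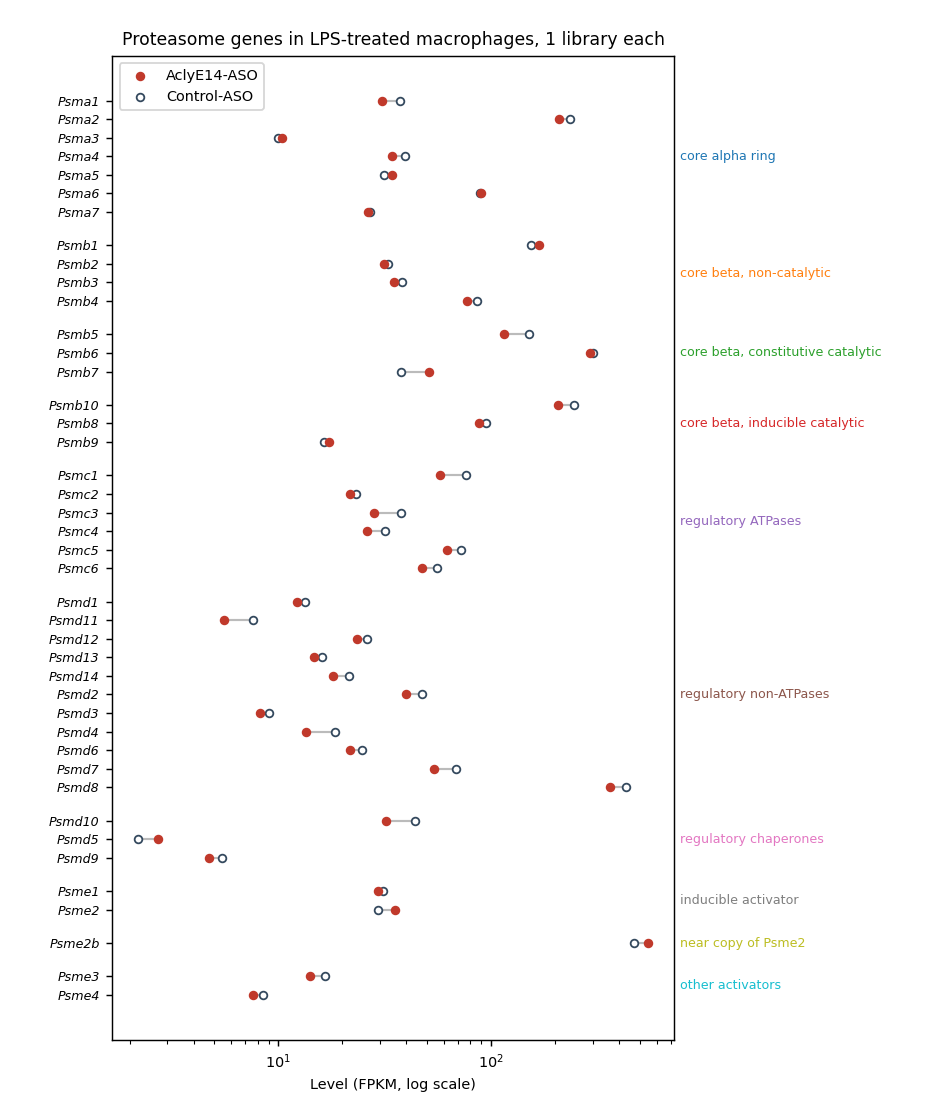
Level of each of the 42 proteasome genes above the expression limit (FPKM, log axis) in the AclyE14-ASO library (filled) and the Control-ASO library (open), 1 library each, grouped by part of the particle. The ATPases and non-ATPases of the regulatory particle all sit left of their Control-ASO values on this scale without centring (13 of 17 after it), while core genes lie on either side.

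The parts of the particle did not share 1 ratio. All 17 measured Psmc and Psmd genes of the regulatory particle, without its chaperones, had log2 ratios below 0, where 64.9% of expressed genes did. The 17 had a median of -0.24 and a range of -0.43 to -0.08. Sem1, a lid subunit that the name rule leaves out, had a log2 ratio of 0.078, and Adrm1, also left out, one of -0.43. The 14 measured core genes other than the inducible ones had a median of -0.05, 9 below 0 and 5 above, and a range of -0.39 to 0.44. The 5 inducible genes, Psmb8, Psmb9, Psmb10, Psme1 and Psme2, had a median of -0.09, 3 below 0 and 2 above, and a range of -0.25 to 0.24. The 3 ranges overlap. Signs depend on the scaling between the libraries. After centring on the median gene, which adds 0.13 to each ratio, 13 of the 17 regulatory genes and 23 of all 42 proteasome genes were below 0. By definition 50% of expressed genes lie below their own median, which was 0.0022 on the centred scale. The medians of the core and inducible genes became 0.07 and 0.04.

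A comparison between parts within each library is free of that scaling. The regulatory particle had 0.936 counts per core particle count in the AclyE14-ASO library and 1.08 in the Control-ASO library, a ratio of ratios of 0.865 (0.847 to 0.884). Without Psmb6 and Psmd8, the genes with the most counts of the core and of the regulatory particle, it was 0.864 (0.841 to 0.887). Without Psmb7 as well it was 0.896 (0.872 to 0.921). The inducible genes had 0.401 counts per core particle count in the AclyE14-ASO library and 0.411 in the Control-ASO library, a ratio of ratios of 0.975 (0.948 to 1.003), an interval that includes 1. Without Psmb6 that ratio of ratios was 0.977 (0.948 to 1.007), and without Psmb6 and Psmb7 it was 1.014 (0.983 to 1.045). Its side of 1 thus depended on the genes kept, and each interval includes 1. Relative to the regulatory particle, the inducible genes were higher, with a ratio of ratios of 1.13 (1.10 to 1.16). The inducible set leaves out Psme2b, a near copy of Psme2 with 5854 counts with the AclyE14-ASO and 5584 with the control ASO. Reads may be split between the copies, and contrasts with Psme2b included were not tested. How much such ratios vary between cultures was not measured.

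**Figure D2:**
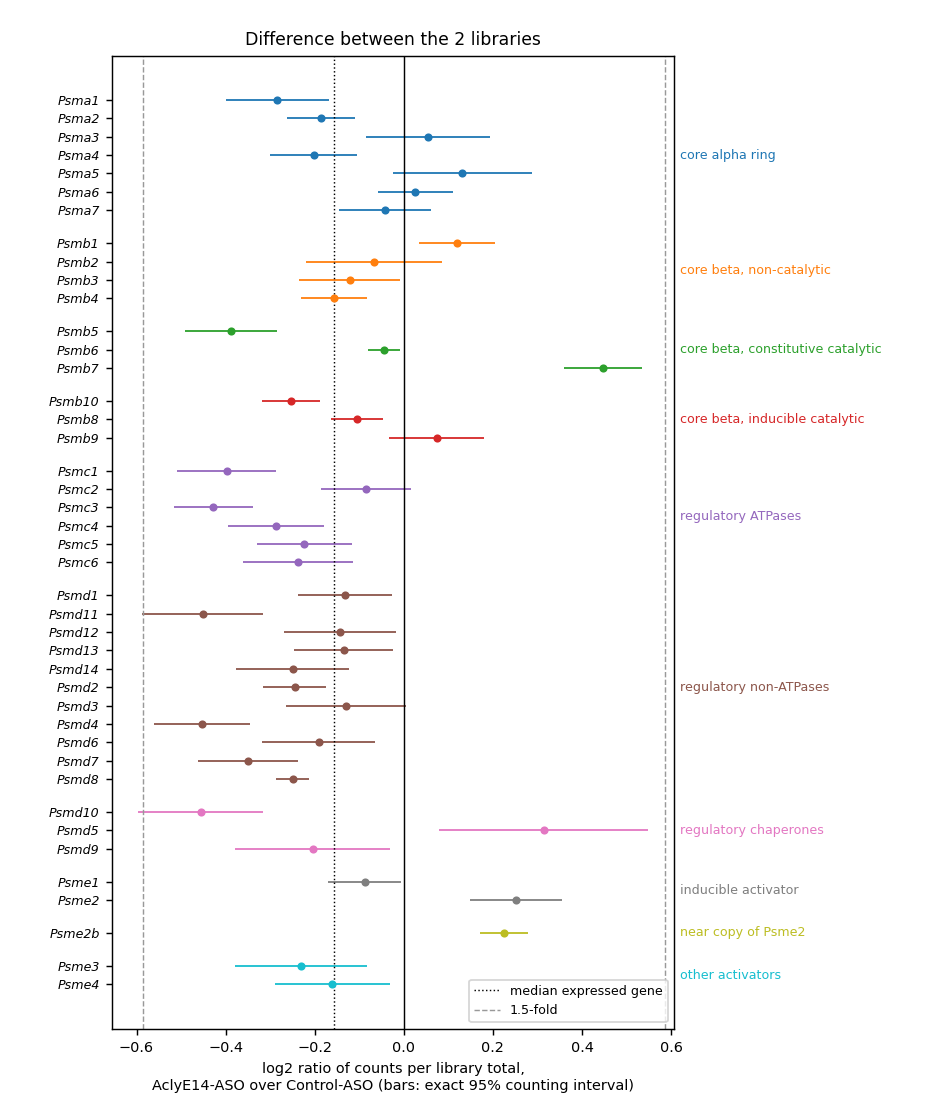
Log2 ratio of counts per library total for each proteasome gene, AclyE14-ASO over Control-ASO, with exact 95% counting intervals, a dotted line at the median expressed gene (-0.16 on this scale, which has no pseudocount) and dashed lines at 1.5-fold. All points lie inside the 1.5-fold lines, with Psmb7 farthest to the right.

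**Figure D3:**
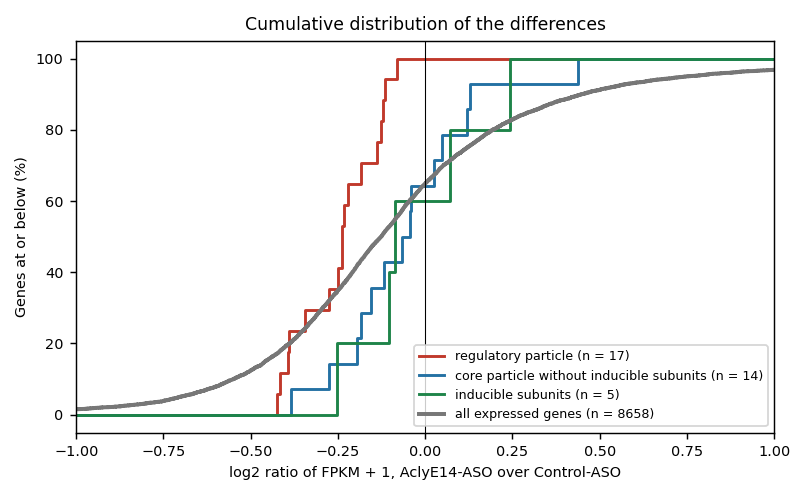
Cumulative share of genes (percent) by log2 ratio (AclyE14-ASO over Control-ASO, FPKM + 1) for the 17 regulatory particle genes, the 14 core genes without inducible subunits, the 5 inducible genes and all 8658 expressed genes. The regulatory curve reaches its top left of 0, while the other curves cross it.

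The inducible catalytic subunits did not move as a group. Psmb8, the inducible subunit with chymotrypsin-like activity, was at 87.8 FPKM (4308 counts) with the AclyE14-ASO and 94.5 FPKM (5168 counts) with the control ASO, a count ratio of 0.929 (0.892 to 0.968). Psmb10, which replaces the trypsin-like subunit, was at 205 FPKM (3323 counts) with the AclyE14-ASO and 245 FPKM (4417 counts) with the control ASO, a ratio of 0.839 (0.802 to 0.878). Psmb9, which replaces the caspase-like subunit, was at 17.2 FPKM (1384 counts) with the AclyE14-ASO and 16.4 FPKM (1466 counts) with the control ASO, and its interval of 0.977 to 1.13 includes 1. Psmb10 and Psmb8 were thus lower beyond counting error, and Psmb9 was not. The direction of Psmb8 depends on the scaling, with a log2 ratio of 0.024 after centring, -0.0041 with TMM factors and -0.0021 with size factors, while that of Psmb10 stayed below 0 in all of these. Together the 3 genes had 9015 counts in the AclyE14-ASO library and 11051 in the Control-ASO library. Psmb9 and Psmb8 lie close together in the MHC region of chromosome 17 (34181987 to 34187764 on the minus strand and 34197721 to 34201454 on the plus strand, GRCm38). Tap1, which encodes a peptide transporter subunit, lies between them (34187553 to 34197225, plus strand). It overlaps Psmb9 by 212 exonic bases on the opposite strand. Tap1 itself had 6708 counts with the AclyE14-ASO and 6884 with the control ASO, a ratio of 1.09 (1.05 to 1.12). The use of strand in counting is not given, and the part of the shared bases in the Psmb9 value was not tested. Psmb11, the catalytic subunit specific to the thymus, had 0 counts in both libraries.

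The constitutive catalytic subunits had the widest spread of log2 ratios of any subgroup (SD 0.41 over 3 genes). Psmb5, the chymotrypsin-like subunit, was at 115 FPKM (1276 counts) in the AclyE14-ASO library and 150.4 FPKM (1862 counts) in the Control-ASO library, a ratio of 0.764 (0.711 to 0.821). Psmb6, the caspase-like subunit, was at 291 FPKM with the AclyE14-ASO and 300.3 FPKM with the control ASO, a ratio of 0.970 (0.946 to 0.994), but its log2 ratio was above 0 after centring and with either set of scaling factors. Psmb7, the trypsin-like subunit, was at 51.2 FPKM (2323 counts) with the AclyE14-ASO and 37.5 FPKM (1900 counts) with the control ASO, a ratio of 1.36 (1.28 to 1.45). The Psmb5 to Psmb7 ratio of counts was 0.561 times as high in the AclyE14-ASO library as in the Control-ASO library (0.510 to 0.616), a pair chosen after its values were seen. Psmb7 shares 405 of its 3421 exonic bases with Nek6, a kinase gene on the opposite strand. Nek6 had 909 counts with the AclyE14-ASO and 495 with the control ASO, a ratio of 2.05 (1.83 to 2.29). The sources used here do not say whether counting used the strand. Without it, reads of the shared bases cannot be told apart, and their part in the Psmb7 value was not tested.

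Each inducible subunit was therefore set against the constitutive subunit it replaces. Psmb8 relative to Psmb5 was 1.22 times as high in the AclyE14-ASO library as in the Control-ASO library (1.12 to 1.32). Psmb9 relative to Psmb6 was 1.09 times as high (1.004 to 1.17). Psmb10 relative to Psmb7 was 0.615 times as high (0.570 to 0.664). The pairs thus went in different directions. The Psmb10 to Psmb7 value carries the limit given above for Psmb7, and the Psmb9 to Psmb6 value that given for Psmb9. The inducible genes made up 37.3% of the counts of all 6 catalytic genes with the AclyE14-ASO and 39.4% with the control ASO. The ratio of odds was 0.918 (0.886 to 0.951), and it carries both limits, as Psmb7 and Psmb9 are among the 6. By FPKM the shares were 40.4% with the AclyE14-ASO and 42.1% with the control ASO. Per kilobase of 1 coding transcript they were 25.8% and 27.3%.

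**Figure D4:**
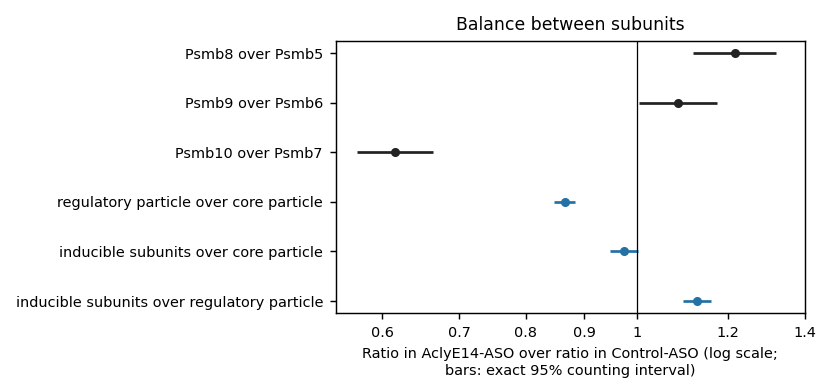
Ratio of counts between subunits in the AclyE14-ASO library over the same ratio in the Control-ASO library (log axis), with exact 95% counting intervals. Black points are the catalytic pairs and blue points the parts of the particle. Psmb10 over Psmb7 is farthest from 1, at 0.615, and Psmb8 over Psmb5 lies above 1, at 1.22.

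Promoters of inducible members are shown because the interferon response of the immunoproteasome is known to act through them. That of a constitutive member is set beside them. Sequences are from RefSeq (GRCm38.p6), cover 250 bases before to 50 bases after the transcript start, and were found for 38 of the 45 genes. The 3 windows below belong to the inducible genes with a match to an interferon motif, Psmb8 and Psme1, and to Psmb5, the partner of Psmb8. They lie at chr17:34197945-34198244 (plus strand), chr14:55578244-55578543 (plus strand) and chr14:54617946-54618245 (minus strand), and capitals mark motif matches. The windows of Psmb8 and Psme1, and that of Psmb9 (not shown), lie inside the gene spans of GENCODE M21. For these genes, bases before those spans were not searched.
Psmb8: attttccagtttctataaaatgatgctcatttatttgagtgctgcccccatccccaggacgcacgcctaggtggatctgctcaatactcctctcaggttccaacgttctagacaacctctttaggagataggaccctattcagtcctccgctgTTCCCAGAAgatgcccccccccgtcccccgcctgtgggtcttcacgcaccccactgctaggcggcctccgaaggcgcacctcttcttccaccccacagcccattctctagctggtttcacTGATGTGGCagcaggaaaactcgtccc
Psme1: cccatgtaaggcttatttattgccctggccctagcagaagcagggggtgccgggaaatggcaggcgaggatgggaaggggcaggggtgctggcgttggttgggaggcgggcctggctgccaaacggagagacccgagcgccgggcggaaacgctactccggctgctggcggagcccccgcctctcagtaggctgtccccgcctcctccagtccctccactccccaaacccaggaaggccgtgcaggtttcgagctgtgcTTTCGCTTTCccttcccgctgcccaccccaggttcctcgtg
Psmb5: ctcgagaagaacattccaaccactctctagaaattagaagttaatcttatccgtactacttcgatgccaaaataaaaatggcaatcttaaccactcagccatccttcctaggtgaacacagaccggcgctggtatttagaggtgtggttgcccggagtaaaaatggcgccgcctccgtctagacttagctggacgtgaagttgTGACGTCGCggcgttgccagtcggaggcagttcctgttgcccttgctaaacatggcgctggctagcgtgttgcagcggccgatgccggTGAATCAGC
The motifs searched, on both strands, were the core of the interferon-stimulated response element (GAAA, any 2 bases, GAAA), TTCNNNGAA, the gamma interferon activated site, and TGANNNNGC. The last is a loose form of the core of the antioxidant response element, through which NRF1, the transcription factor that raises proteasome genes, is known to act. It leaves the base after TGA free and was found in 41.3% of all promoters, so a match does not show a site of NRF1. No matches of different motifs overlapped in these windows. The capitals in Psmb8 are TTCCCAGAA, a match to TTCNNNGAA that starts 97 bases before the transcript start, and TGATGTGGC, a match to TGANNNNGC. The capitals in Psme1 are TTTCGCTTTC, a match to the interferon-stimulated response element core on the other strand. The capitals in Psmb5 are TGACGTCGC and TGAATCAGC, both matches to TGANNNNGC. Over the members with a window, the interferon-stimulated response element core was found in 4 genes (Psmb3, Psmd4, Psmd9 and Psme1), TTCNNNGAA in 2 (Psmb8 and Psmd2) and TGANNNNGC in 22. Over all 32851 promoters of the same length the shares were 3.44%, 8.30% and 41.3%. The windows of Psmb9 and Psme2 held TGANNNNGC only, and that of Psmb10 none of the motifs.

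Among the activators that open the core gate, Psme1 and Psme2, the alpha and beta chains of the interferon-inducible activator, differed from each other, with a Psme2 to Psme1 ratio 1.27 times as high in the AclyE14-ASO library as in the Control-ASO library (1.15 to 1.39), a pair chosen after its values were seen. Psme1 was at 29.3 FPKM (2224 counts) with the AclyE14-ASO and 31.2 FPKM (2636 counts) with the control ASO, a ratio of 0.941 (0.889 to 0.996). Its log2 ratio was 0.043 after centring, 0.013 with TMM factors and 0.015 with size factors, so it lay above 0 in all of these. Psme2 was at 35.2 FPKM (1577 counts) with the AclyE14-ASO and 29.5 FPKM (1477 counts) with the control ASO, a ratio of 1.19 (1.11 to 1.28). Both lie on chromosome 14, at 55578123 to 55581529 and 55587441 to 55591113 (GRCm38). Psme2b, a near copy of Psme2 on chromosome 11, was at 549 FPKM (5854 counts) with the AclyE14-ASO and 469 FPKM (5584 counts) with the control ASO. Its transcript is 99.4% identical to that of Psme2, so reads of the copies may be split between them. The summed counts of Psme2 and Psme2b had a ratio of 1.17 (1.14 to 1.21), close to that of either alone. The nuclear activator Psme3 was at 14.1 FPKM with the AclyE14-ASO and 16.5 FPKM with the control ASO (ratio 0.853, 0.769 to 0.944). Psme4, a large single-chain activator, was at 7.61 FPKM with the AclyE14-ASO and 8.51 FPKM with the control ASO (ratio 0.894, 0.818 to 0.978).

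The ATPases of the regulatory particle unfold the substrate. All 6 had fewer counts per total in the AclyE14-ASO library, where 64.9% of expressed genes had log2 ratios below 0. The counting interval lay below 1 for 5 of the 6, where it did for 44.2% of expressed genes, a share not matched for counts. Psmc3 had the lowest ratio, with 28.2 FPKM (1750 counts) with the AclyE14-ASO and 37.9 FPKM (2624 counts) with the control ASO, a ratio of 0.744 (0.699 to 0.790). Psmc1 followed at 57.6 FPKM with the AclyE14-ASO and 75.9 FPKM with the control ASO, a ratio of 0.759 (0.703 to 0.819). Psmc2 was the exception, at 21.8 FPKM with the AclyE14-ASO and 23.1 FPKM with the control ASO, with an interval of 0.879 to 1.011 and a log2 ratio above 0 after centring and with either set of scaling factors. Psmc5 was at 61.8 FPKM with the AclyE14-ASO and 72.2 FPKM with the control ASO. Psmc4 and Psmc6 had ratios of 0.820 and 0.848. Summed over the 6 genes the ratio was 0.820 (0.797 to 0.845).

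The non-ATPase subunits hold the ubiquitin receptors, the deubiquitinase and the scaffold of the lid. Of these 11 genes, 10 had intervals below 1, where 44.2% of expressed genes did, a share not matched for counts. That of Psmd3, a lid subunit, spanned 1 (0.832 to 1.004). These intervals rest on the library totals. After centring, Psmd1, Psmd3 and Psmd13 had log2 ratios above 0 (0.0063, 0.012 and 0.0022). Each of these was below 0 with either set of scaling factors. Psmd4, a ubiquitin receptor, had the lowest ratio, at 13.5 FPKM (1165 counts) with the AclyE14-ASO and 18.5 FPKM (1778 counts) with the control ASO, a ratio of 0.730 (0.678 to 0.787). Psmd11, a lid scaffold subunit, was at 5.56 FPKM with the AclyE14-ASO and 7.604 FPKM with the control ASO, a ratio of 0.732 (0.666 to 0.804). Psmd14, the deubiquitinase that removes ubiquitin chains, was at 18.1 FPKM with the AclyE14-ASO and 21.5 FPKM with the control ASO, a ratio of 0.841 (0.771 to 0.918). Psmd2, a scaffold of the base, was at 39.9 FPKM with the AclyE14-ASO and 47.2 FPKM with the control ASO, and Psmd1, its partner, at 12.2 FPKM with the AclyE14-ASO and 13.4 FPKM with the control ASO. The most abundant, Psmd8, was at 362 FPKM with the AclyE14-ASO and 431 FPKM with the control ASO, a ratio of 0.841 (0.820 to 0.863). The remaining Psmd6, Psmd7, Psmd12 and Psmd13 had ratios of 0.876, 0.785, 0.905 and 0.911. Summed over the 11 genes the ratio was 0.841 (0.827 to 0.856), near that of the ATPases.

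The chaperones that assemble the base of the regulatory particle leave it before it is finished, and they did not share 1 direction. Psmd10, also called gankyrin, was at 31.9 FPKM (689 counts) with the AclyE14-ASO and 43.8 FPKM (1054 counts) with the control ASO, a ratio of 0.729 (0.661 to 0.803). Psmd5 was at 2.72 FPKM (320 counts) with the AclyE14-ASO and 2.19 FPKM (287 counts) with the control ASO, a ratio of 1.24 (1.06 to 1.46). Psmd9 was at 4.72 FPKM with the AclyE14-ASO and 5.45 FPKM with the control ASO, a ratio of 0.868 (0.769 to 0.979).

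Of the 7 measured alpha ring genes, 3 had intervals below 1, near the 44.2% of expressed genes that did, a share not matched for counts. These were Psma1, Psma2 and Psma4, with ratios of 0.821, 0.880 and 0.869. The intervals of Psma3, Psma5, Psma6 and Psma7 included 1. Psma1 had the lowest ratio, with 30.7 FPKM in the AclyE14-ASO library and 37.4 FPKM in the Control-ASO library. Psma5 had the highest, 1.10 (0.983 to 1.22), with 34.2 FPKM in the AclyE14-ASO library and 31.2 FPKM in the Control-ASO library. Its row is uncertain, because Gm8394, whose transcript is 98.6% identical to that of Psma5, held 598 counts with the AclyE14-ASO and 581 with the control ASO, nearly as many as Psma5 itself (671 and 683). The summed ratio was 1.12 (1.03 to 1.21). The most abundant by FPKM, Psma2, was at 208 FPKM with the AclyE14-ASO and 236 FPKM with the control ASO. Psma8, an alpha subunit of the testis, had 9 counts with the AclyE14-ASO and 14 with the control ASO. Among the non-catalytic beta genes, Psmb1 had a ratio of 1.09 (1.02 to 1.15) and Psmb4 of 0.897 (0.852 to 0.945). Psmb3 had a ratio of 0.919 and Psmb2 of 0.954, with an interval of 0.858 to 1.06 for the last. Psmc3ip, which meets the name rule but encodes a meiotic recombination factor and no subunit, had 20 counts with the AclyE14-ASO and 17 with the control ASO.

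Levels of different subunits depend on the gene length behind the FPKM. The length implied by the deposited counts and FPKM was within 1% of the summed length of all distinct annotated exons for 68.0% of 10064 genes with over 20 counts in each library, and for 25 of the 42 proteasome genes. Overlapping exons of alternative transcripts count repeatedly in that sum. For the proteasome genes the implied length was 0.324 to 5.35 times that of 1 coding transcript per gene. On the deposited scale the 7 measured alpha ring genes spanned 10.4 to 208 FPKM in the AclyE14-ASO library and 9.98 to 236 FPKM in the Control-ASO library. Counted as CPM (counts scaled to the library total) per kilobase of 1 coding transcript, a scale added after seeing the data, they spanned 22.8 to 164 in the AclyE14-ASO library and 21.9 to 161 in the Control-ASO library. The spread was 7.22-fold with the AclyE14-ASO and 7.36-fold with the control ASO on that scale, and 20.04-fold with the AclyE14-ASO and 23.7-fold with the control ASO on the FPKM scale. Psmb9 was 5.10 times below Psmb8 in FPKM with the AclyE14-ASO and 5.77 times with the control ASO, but 2.59 and 2.93 times below it per kilobase of coding transcript. The Psmb8 share of the Psmb8 and Psmb5 pair was 43.3% of the summed FPKM with the AclyE14-ASO and 38.6% with the control ASO, and 65.1% and 60.5% per kilobase of coding transcript. On either scale Psmb6 and Psmd8 stood above their partners, at 1134 and 520.5 per kilobase of coding transcript with the AclyE14-ASO and 1169 and 619 with the control ASO. On that scale the core genes had medians of 107 with the AclyE14-ASO and 117 with the control ASO, and the regulatory particle genes 54.4 and 68.1. The choice of length leaves every ratio between the libraries as it is, apart from the pseudocount.

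**Figure D5:**
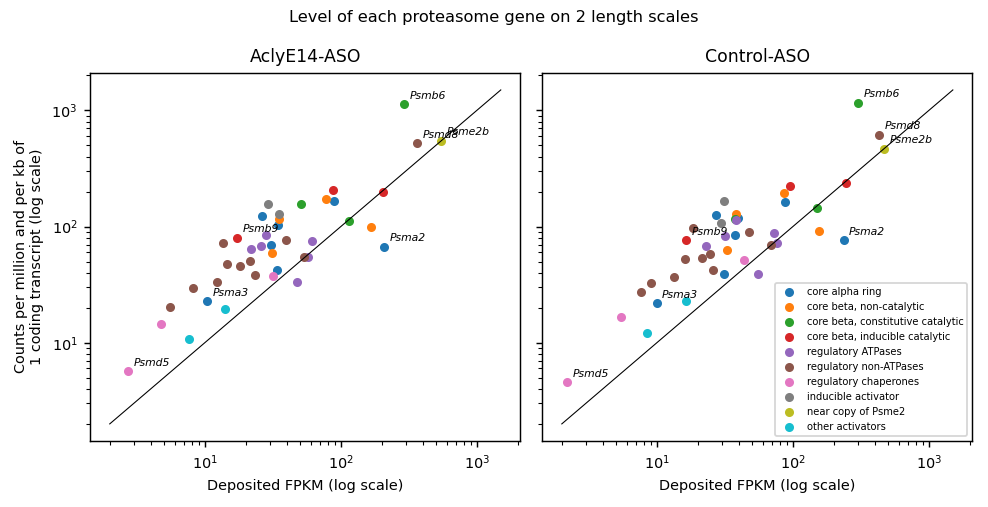
Level of each proteasome gene by deposited FPKM (horizontal) and by CPM per kilobase of 1 coding transcript (vertical), log axes, for the AclyE14-ASO library (left) and the Control-ASO library (right). The line marks equal values. Psma2 lies below it, and Psmb6 and Psmb9 lie above it.

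Genes that act with the proteasome were described from lists chosen with earlier results known. Of 20 assembly and associated factors in the table, 1 was higher by 1.5-fold and 2 were lower, where 7.03% of expressed genes were higher and 8.48% lower, so the count is near that background. Their median was -0.31, and that of all expressed genes -0.13. Zfand5, a proteasome-binding zinc finger protein, was lower, at 10.03 FPKM with the AclyE14-ASO and 22.2 FPKM with the control ASO. Ubqln4, a shuttle for ubiquitinated proteins, was lower as well (3.91 FPKM with the AclyE14-ASO and 6.79 FPKM with the control ASO), but not past 1.5-fold after centring, with either set of scaling factors or with a pseudocount of 5 FPKM. Psmg1, a chaperone of the alpha ring, was higher, with 58 counts in the AclyE14-ASO library and 33 in the Control-ASO library, but not past 1.5-fold with a pseudocount of 5 FPKM. Txnl1, the most abundant, was at 61.1 FPKM with the AclyE14-ASO and 83.5 FPKM with the control ASO, and Sem1, a small lid subunit, at 57.6 FPKM with the AclyE14-ASO and 54.5 FPKM with the control ASO.

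Of the 10 genes of the NRF1 list, 1 was higher and 1 was lower, where 15.5% of expressed genes were called in either direction, and the median was -0.35. Nfe2l1, which encodes NRF1, was lower, at 5.85 FPKM (1120 counts) with the AclyE14-ASO and 9.57 FPKM (2042 counts) with the control ASO, a count ratio of 0.611. It was not past 1.5-fold after centring, with either set of scaling factors or with a pseudocount of 5 FPKM. Sel1l, a component of the ER ubiquitin ligase complex, was higher (13.8 FPKM with the AclyE14-ASO and 8.75 FPKM with the control ASO), but not past 1.5-fold with a pseudocount of 5 FPKM. Nfe2l2, which encodes the related factor NRF2, was at 27.5 FPKM with the AclyE14-ASO and 39.2 FPKM with the control ASO. Maff, a small partner of these factors and the most abundant on average, was at 72.7 FPKM with the AclyE14-ASO and 71.9 FPKM with the control ASO.

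None of the 10 peptide loading genes passed 1.5-fold, where 15.5% of expressed genes did, and their median was 0.14. Canx, a chaperone of the class I heavy chain, had the highest ratio (25.9 FPKM with the AclyE14-ASO and 19.5 FPKM with the control ASO). Pdia3 had the next highest, with 59.4 FPKM with the AclyE14-ASO and 46.1 FPKM with the control ASO. Erap1, which trims peptides in the ER, had the lowest, with 20.4 FPKM with the AclyE14-ASO and 30.1 FPKM with the control ASO. Tapbpl, a peptide editor, was at 45.5 FPKM with the AclyE14-ASO and 45.8 FPKM with the control ASO. B2m, the light chain of class I molecules, was at 7558 FPKM with the AclyE14-ASO and 5935 FPKM with the control ASO.

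Of the 11 genes that induce immunosubunits, 1 was lower and 0 were higher, near the 8.48% and 7.03% of expressed genes, with a median of -0.19. The lower gene was Irf9, at 13.9 FPKM with the AclyE14-ASO and 24.0 FPKM with the control ASO. Irf1, a direct activator of immunoproteasome genes, was at 128 FPKM with the AclyE14-ASO and 147 FPKM with the control ASO. The kinase Jak1 was at 26.0 FPKM with the AclyE14-ASO and 34.8 FPKM with the control ASO. Jak2, which acts with it at the interferon gamma receptor, had the highest ratio, with 62.8 FPKM with the AclyE14-ASO and 54.7 FPKM with the control ASO. The receptor chain Ifngr2 was at 43.1 FPKM with the AclyE14-ASO and 39.8 FPKM with the control ASO.

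Ubb, a gene that encodes ubiquitin, was at 314 FPKM with the AclyE14-ASO and 306 FPKM with the control ASO. Rps27a, a fusion of ubiquitin with a ribosomal protein, was higher by 1.5-fold or more, with 346 counts in the AclyE14-ASO library and 235 in the Control-ASO library, but not with a pseudocount of 5 FPKM.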

How the data were processed

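Gene expression was measured by RNA sequencing in 1 AclyE14-ASO library and 1 Control-ASO library of LPS-treated mouse macrophages. The authors deposited raw counts per gene and FPKM values, per the file headers. The submitters' processing notes list mm10, HISAT2, edgeR and StringTie 1.3.0 and give no role for any of them. The sources used here do not give the annotation, the use of strand or the handling of reads shared between genes. For 10077 genes above 20 counts in each library, 1 count was worth 1.11 times more FPKM in the AclyE14-ASO library, which equals the ratio of the count totals.

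Symbols and coordinates came from GENCODE M21 (GRCm38, also called mm10), which matched 34344 of the 34745 identifiers. With 1 library per group no test was run. Log2 ratios were of FPKM + 1, taken for genes averaging 1 FPKM or more, and calls were made at 1.5-fold. Ratios of counts carry exact (Clopper-Pearson) 95% conditional binomial intervals, and ratios between subunits exact intervals of the conditional odds ratio. The reads carry no molecular identifiers that the sources name, so they may not be independent molecules, and the intervals cover counting error only. The coding transcript per gene was the principal protein-coding isoform, or the one with the longest coding sequence. Near copies were transcripts of other genes with at least 90% identity over at least 200 bases (BLAST+ 2.17.0). Python 3.11.15 with SciPy 1.17.1, pandas 2.3.3 and NumPy 2.4.6 was used throughout, except for TMM factors (edgeR 4.0.16, R 4.3.3). The ratio and call functions were tested on simulated counts.

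The members, gene lists and the rule for named genes were chosen with earlier results of these data known. The rule named Acly, the inducible subunits and their counterparts, Psme3, Psme4, every member past 1.5-fold, and the 2 highest and 2 lowest ratios and the most abundant gene of each subgroup or list. The other members were named after their values were seen. Protein sequences were not used here. Some genes of the ubiquitin list that the rule names are not reported here.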

Additional observations from a re-analysis of the deposited data

How the results depend on the processing

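No paired analysis was possible because each group had 1 library and the labels give no replicate numbers. No replicate could be left out for the same reason. The number of proteasome genes past 1.5-fold was 0 in both directions under every alternative run. Centring on the median gene gave -0.020 for all proteasome genes, 0.074 for the core particle without inducible subunits, -0.11 for the regulatory particle and 0.043 for the inducible genes, and for their summed FPKM log2 ratios of 0.032, 0.050, -0.14 and -0.023. TMM factors gave medians of -0.053, 0.045, -0.14 and 0.013 and sums of 0.0046, 0.023, -0.16 and -0.050. Median-of-ratios size factors gave medians of -0.051, 0.047, -0.14 and 0.015 and sums of 0.0067, 0.025, -0.16 and -0.048. Without such scaling the summed FPKM had log2 ratios of -0.10, -0.08, -0.26 and -0.15. A pseudocount of 5 FPKM gave a median of -0.11 for all proteasome genes. The mean of the members' log2 ratios, in place of the summed FPKM, was -0.13 for all proteasome genes, -0.051 for the core particle and -0.026 for the inducible genes, and without Psmb6 and Psmd8, an alternative chosen after seeing the data, the sum over all proteasome genes had a log2 ratio of -0.078.

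Counts over all expressed genes were 609 higher and 734 lower. They were 787 higher and 1184 lower with a pseudocount of 0.1 FPKM, 287 higher and 258 lower with one of 5 FPKM, 851 higher and 406 lower after centring, 298 higher and 455 lower at a mean of at least 5 FPKM, and 275 higher and 134 lower at 2-fold. The share of higher calls was 45.3% without scaling, 67.7% after centring, 59.7% with TMM factors and 60% with size factors. Over all 5 lists of related genes (20, 10, 10, 11 and 6 expressed genes), 3 were higher and 5 lower. Of all expressed genes 7.03% were higher and 8.48% lower. The lower count of the lists was 3 after centring and with either set of scaling factors. With a pseudocount of 5 FPKM 0 were higher and 3 lower, and at 2-fold 0 were higher and 1 lower. Summing a member's counts with those of overlapping genes of the same strand, named pseudogenes or near copies kept its log2 ratio within its counting interval, for the members that have such genes. The cause of these shifts was not tested.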

Other observations

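Other rows of the table overlap members. The transcript 3110056K07Rik, which overlaps Psma3 on the opposite strand but shares 0 exonic bases with it, had 10 counts with the AclyE14-ASO and 50 with the control ASO, a ratio of 0.223 (0.101 to 0.445). Slc39a13, a zinc transporter gene that shares 215 exonic bases with Psmc3 on the opposite strand, had 110 counts with the AclyE14-ASO and 133 with the control ASO. Gm5422, a near copy of Psmd2 with 96.4% identity, had 87 counts with the AclyE14-ASO and 121 with the control ASO, and Gm4950, a near copy of Psmb3 with 97.1% identity, had 35 with the AclyE14-ASO and 33 with the control ASO. The 4 rows named as pseudogenes of members held 8 counts with the AclyE14-ASO and 3 with the control ASO in all.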
